A study of Mus musculus with 33 samples.

Results

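Interferon-stimulated genes and sensors of foreign nucleic acid were followed through all 33 RNA-seq libraries of the series. The 9 genes, Isg15, Ifit1, Ifit3, Irf7, Stat2, Oasl2, Bst2, Ddx58 and Ifih1, were chosen by name, with earlier results of these data known, and each was found once among the 37991 Ensembl gene identifiers of the count tables. The question was whether the loss of a base excision repair enzyme comes with an innate immune response. NEIL1 and NEIL2 are DNA glycosylases, which remove oxidised bases from DNA, and APEX1 is the endonuclease that cuts the abasic site a glycosylase leaves behind. All lines derive from E14TG2a, a mouse embryonic stem cell (mESC) line whose stock had been Mycoplasma-positive and was decontaminated before use. All lines received a Cas9 plasmid together with a puromycin resistance plasmid, and puromycin-selected colonies were picked. Control lines were mock transfected with the plasmid lacking a guide and were represented by clones #1, #4 and #7. Neil1 mutants were represented by clones #7, #9 and #11 and Neil2 mutants by clones #1, #11 and #14. The Apex1 mutant was a single clone, #46, sequenced as technical duplicates, so that its libraries show no variation between clones. Each clone was taken as undifferentiated mESCs, as embryoid bodies (EBs) grown for 8 days, and as EBs that received 5 µM retinoic acid (RA) from day 4 for neural differentiation (EBs + RA). EBs are mixtures of cell types, so that in these bulk libraries fewer cells of a type and less RNA per cell cannot be told apart.

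Cells detect viral or misplaced nucleic acid through cytosolic sensors, which switch on interferon genes. Secreted interferon then acts through its receptor and STAT proteins on a large set of target genes. Ddx58 (RIG-I) and Ifih1 (MDA5) encode RNA helicases that sense double-stranded RNA. Irf7 encodes the transcription factor that amplifies interferon production, and Stat2 encodes a subunit of the complex that carries the interferon signal to DNA. The other members are targets with antiviral roles. Isg15 encodes a ubiquitin-like modifier, Ifit1 and Ifit3 encode proteins that act against viral RNA, Oasl2 encodes a relative of the oligoadenylate synthetases, and Bst2 encodes tetherin, which holds budding virus at the cell surface. DNA that leaks from damaged nuclei or mitochondria can enter the same pathway through cGAS and STING. Embryonic stem cells are known for a weak interferon response.

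The complex that contains STAT2 binds the interferon-stimulated response element (ISRE), and the upstream sequences that hold its core are shown here because the members are defined by this response. The core was searched for as GAAANNGAAA on either strand in RefSeq promoter windows of GRCm38.p6, which run from 250 bases before to 50 bases after a gene's start. All 9 members had a window, and 7 held the core, against 3.44% of all 32851 windows. Isg15 held 3 overlapping matches, 78 to 57 bases before its start, and Bst2 held 2 overlapping matches, 130 to 115 bases before its start. Ifit1 and Ifit3 held 2 separate matches each and Stat2 held 1. The matches of Ddx58 and Ifih1 lay after the start, and the windows of Irf7 and Oasl2 held none, which says only that these letters are absent from this stretch. The related element for STAT dimers, searched for as TTCNNNGAA, occurred in the window of Bst2, where its last bases overlap the first ISRE match, against 8.3% of all windows. The stretches below have 110 bases each and are written 5′ to 3′ on the strand of the gene, with the ISRE matches in capitals. They are Isg15 (chr4:156200869-156200978, minus strand), Bst2 (chr8:71537523-71537632, minus strand), Ifit1 (chr19:34640729-34640838, plus strand) and Ifit3 (chr19:34583369-34583478, plus strand), from 160 to 51 bases before the start, and Stat2 (chr10:128270258-128270367, plus strand), from 240 to 131 bases before it.
Isg15: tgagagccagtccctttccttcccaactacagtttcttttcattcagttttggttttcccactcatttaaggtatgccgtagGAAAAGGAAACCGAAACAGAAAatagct
Bst2: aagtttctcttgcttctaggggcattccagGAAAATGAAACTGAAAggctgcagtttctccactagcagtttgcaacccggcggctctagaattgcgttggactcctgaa
Ifit1: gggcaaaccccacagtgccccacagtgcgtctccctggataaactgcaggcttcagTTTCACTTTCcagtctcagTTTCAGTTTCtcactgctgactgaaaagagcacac
Ifit3: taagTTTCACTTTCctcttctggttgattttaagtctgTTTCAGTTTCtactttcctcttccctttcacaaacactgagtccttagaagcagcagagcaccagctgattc
Stat2: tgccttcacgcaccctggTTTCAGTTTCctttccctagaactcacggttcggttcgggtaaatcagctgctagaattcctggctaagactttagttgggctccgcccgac
In the files' own build, NCBIM37, Isg15 (ENSMUSG00000035692) lies on chromosome 4 from 155573533 to 155574927, and Ddx58 (ENSMUSG00000040296) lies on the same chromosome from 40150806 to 40186861. Ifit3 (ENSMUSG00000074896, 34658021 to 34663221) and Ifit1 (ENSMUSG00000034459, 34715361 to 34724499) are neighbours on chromosome 19. Irf7 (ENSMUSG00000025498) lies on chromosome 7 from 148448605 to 148452380, Stat2 (ENSMUSG00000040033) on chromosome 10 from 127707629 to 127729905, and Oasl2 (ENSMUSG00000029561) on chromosome 5 from 115346943 to 115362243. Bst2 (ENSMUSG00000046718) lies on chromosome 8 from 74058163 to 74061336 and Ifih1 (ENSMUSG00000026896) on chromosome 2 from 62433850 to 62484312. All 9 are protein-coding, and the counts cover all annotated exons of a gene.

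The libraries held between 21523742 and 48350904 counts on genes, with a median of 26720028. Levels are given in CPM, the count of a gene scaled to a common total of counts on genes, and, between genes, as CPM per kilobase of exon. Genes were called differentially expressed (DE) by edgeR's quasi-likelihood test at a false discovery rate (FDR) below 0.1 and a log2 fold change above 0.5 in size, and changes are printed ± their standard error (SE). The rows of the targeted genes cover reads over the whole gene, so that they do not measure a deletion of a part of it. Neil1 was DE in Neil1 EBs (log2 fold change −1.18, FDR 0.0869) and Neil1 EBs + RA (−1.18, FDR 0.018) but ranged from 2.31 to 29.6 CPM in Neil1 mESCs against 7.15 to 10.0 CPM in the controls. The call in EBs was not made by DESeq2 and was lost without control clone #4 or Neil1 clone #9 or #11. Neil2 was not DE in Neil2 clones at any stage (FDR 0.154 to 0.501). Apex1 counts were higher in the Apex1-labelled libraries, at 56.9 to 79.8 CPM over the 3 stages against 7.70 to 16.7 CPM in the controls. Since a whole-gene row does not measure a partial deletion, these counts do not test the label. Directions given below are those of libraries labelled Apex1. Colonies had been genotyped by PCR around the targeted site, and the study examined APEX1 protein in the Apex1 line by western blot, neither of which these counts measure. The mESC library of Neil1 clone #11 lacks counts on a large part of chromosome X, on which no member lies.

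The 9 genes fell into an expressed and a nearly silent set in mESCs. Per kilobase of exon, control mESCs averaged 69.8 CPM for Bst2, 10.1 for Stat2 and 4.4 for Ddx58. The other 6 genes averaged between 0.0143 CPM per kilobase for Ifit3 and 0.28 for Isg15. In control EBs the order was Bst2 (114 CPM per kilobase), Isg15 (11.2), Stat2 (7.80), Ddx58 (4.14) and Oasl2 (3.52), with the other 4 genes between 0.177 and 0.631. In control EBs + RA it was Bst2 (66.6 CPM per kilobase), Stat2 (6.70), Isg15 (4.47), Oasl2 (3.01) and Ddx58 (1.86), and the other 4 genes lay between 0.325 and 0.658. Ordered by mean CPM over the 12 groups, most neighbouring groups overlapped in range for every gene. No neighbouring pair of the 11 was separate for Ifit1, Irf7 and Stat2, 1 was separate for Ifit3, Ddx58 and Ifih1, and 2 were separate for Isg15, Oasl2 and Bst2. Isg15 was highest on average in control EBs (8.49 CPM), mean Bst2, Oasl2 and Ifih1 were highest in Neil2 EBs + RA (156, 34.1 and 4.37 CPM), and mean Ifit1, Ifit3 and Irf7 were highest in Neil1 EBs + RA (4.69, 2.01 and 3.04 CPM). Stat2 moved least, from a mean of 28.9 CPM in Neil1 EBs to 46.4 CPM in Neil2 EBs. For Ddx58 the separation fell between control EBs (29.2 CPM) and the 4 groups of EBs + RA, whose means began at 13.1 CPM in the controls.

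**Figure D1:**
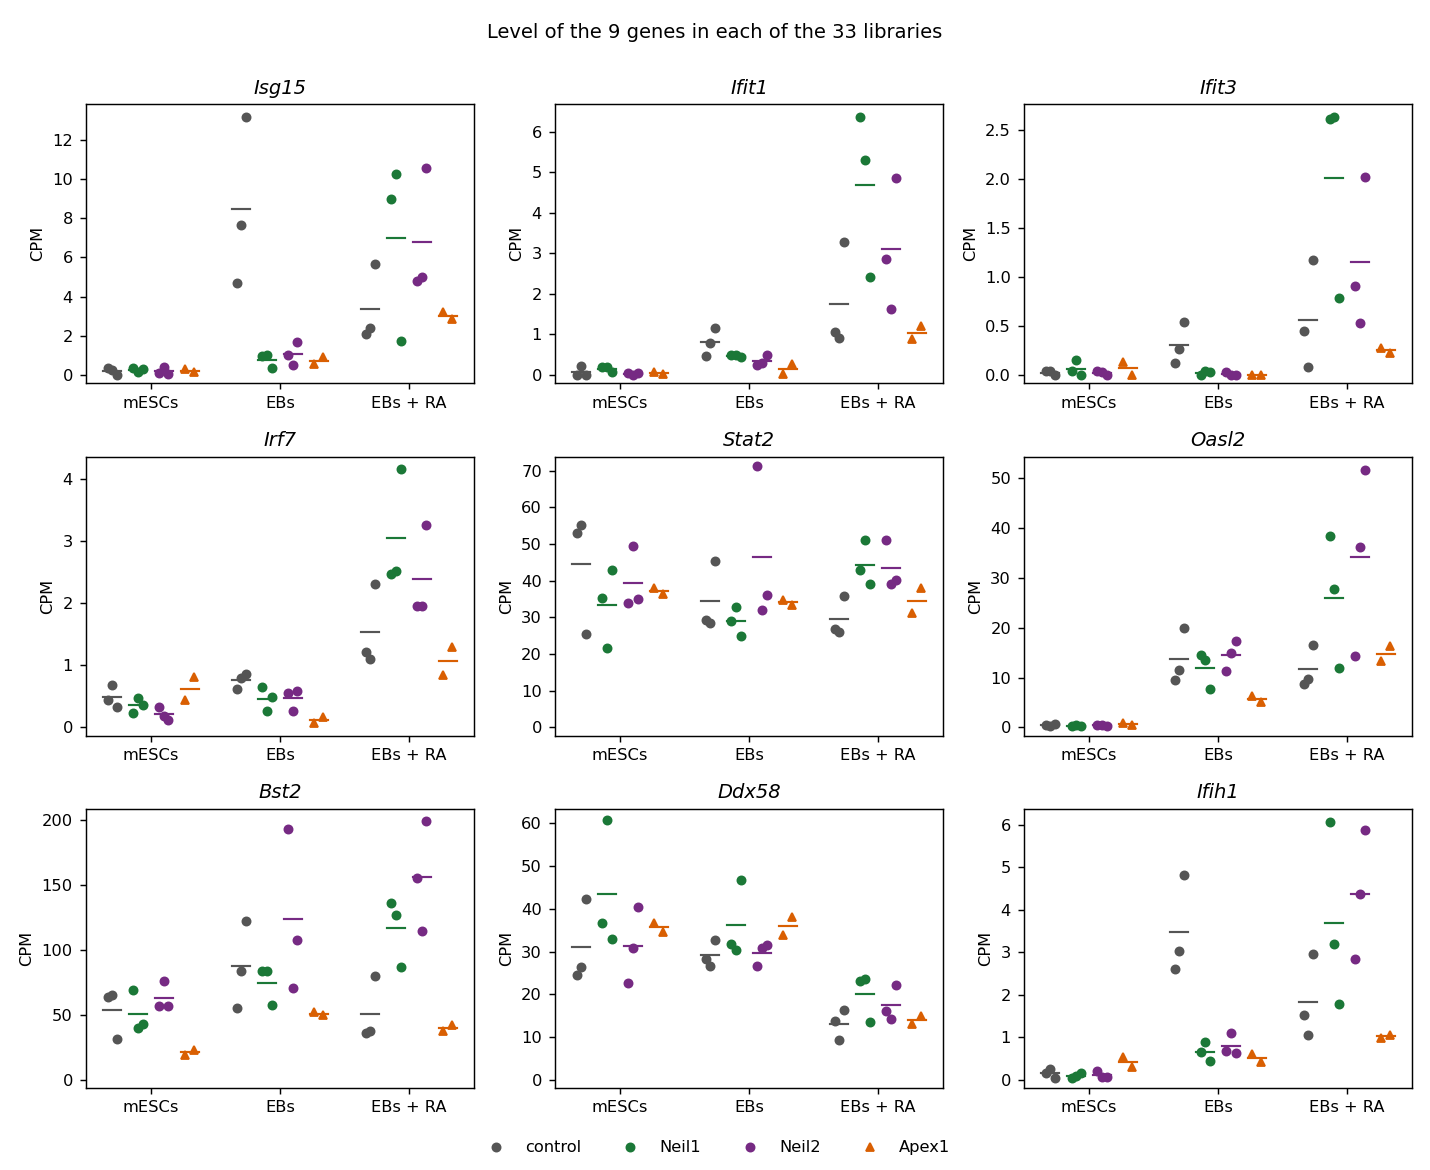
Levels of the 9 genes in CPM (linear axes from 0, 1 panel per gene) in every library. Within each stage the groups stand from left to right as control, Neil1, Neil2 and Apex1-labelled. Points are clones, triangles are the technical duplicates of Apex1 clone #46, and lines are group means. Isg15 stands at 4.70 to 13.2 CPM in control EBs and below 2 CPM in all mutant EBs, while Bst2 in EBs + RA stands at 87.0 CPM or more in the Neil1 and Neil2 clones and at most 79.6 CPM in the controls.

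Differentiation of the control clones to EBs brought up most of the silent set. Between control EBs and control mESCs, 5 of the 8 members tested were raised and none was lowered, beside 18.5% of all tested genes raised. Isg15 held 0.372, 0.263 and 0 CPM in mESCs of clones #1, #4 and #7, and 4.70, 7.63 and 13.2 CPM in their EBs. This was a log2 fold change of 5.30 ± 0.66 (SE, FDR 3.35e-04). Oasl2 went from 0.376 to 0.664 CPM in mESCs to 9.49, 11.4 and 20.0 CPM in EBs (log2 fold change 4.69 ± 0.38, FDR 3.08e-05). The sensor gene Ifih1 went from 0.149, 0.263 and 0.0369 CPM to 2.61, 3.03 and 4.82 CPM (log2 fold change 4.5 ± 0.51, FDR 1.99e-04). For these genes no EB library overlapped an mESC library. Ifit1 rose from at most 0.225 CPM to between 0.476 and 1.15 CPM (log2 fold change 3.33, FDR 0.0137), on at most 32 counts per library. Bst2 was called at a log2 fold change of 0.71 (FDR 0.0935) with overlapping ranges of 31.3 to 65.3 and 55.2 to 122 CPM. With the clone as a block the Bst2 change was not DE (log2 fold change 0.69, FDR 0.204), nor was it without clone #4 (0.91, FDR 0.152) or without clone #7 (0.15, FDR 0.614). Irf7, Stat2 and Ddx58 gave log2 fold changes of 0.62, −0.37 and −0.11 (FDR 0.212, 0.306 and 0.725). Ifit3, with 1, 1 and 0 counts in mESCs and 6, 7 and 15 counts in EBs, was below the count filter of the edgeR test, and DESeq2, which tested it, called it (FDR 0.0289).

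In mESCs no member was DE in any mutant. By edgeR's test 0 of 5 members were DE in Neil1, 0 of 4 in Neil2 and 0 of 7 in the Apex1-labelled clone, beside 1.82%, 1.83% and 1.98% of all tested genes in either direction. Without adjustment 0, 0 and 1 members had a p below 0.05, and DESeq2 called 0 of 5, 0 of 3 and 1 of 3. The member called by DESeq2 was Bst2, which held 18.8 and 23.1 CPM in the Apex1-labelled libraries and 63.3, 65.3 and 31.3 CPM in the controls. Both duplicates lay below all controls, the log2 fold change was −1.45 ± 0.43 (SE, FDR 0.133), and DESeq2 gave an FDR of 0.00761. Stat2 and Ddx58, the other expressed members, overlapped the controls in each mutant, with log2 fold changes between −0.39 and 0.51. The 6 silent members stayed at or below 27 counts per library in every mESC library, the highest being Oasl2 in an Apex1-labelled library. Isg15 held 0.157 to 0.344 CPM in Neil1 and 0.0615 to 0.395 CPM in Neil2 clones against 0 to 0.372 CPM in the controls, and Ifih1 held at most 0.201 CPM in both against at most 0.263 CPM. In the Apex1-labelled libraries Ifih1 held 0.543 and 0.307 CPM, on 16 and 8 counts and above all controls, at a log2 fold change of 1.41 ± 0.77 (SE, FDR 0.353). For the silent genes smaller differences were not detectable at this depth.

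In EBs Isg15 and Ifih1 were lowered in every mutant. In CPM, Isg15 held 0.965, 1.00 and 0.379 in Neil1 clones #7, #9 and #11, and 1.03, 0.495 and 1.68 in Neil2 clones #1, #11 and #14. The Apex1-labelled duplicates held 0.577 and 0.909 CPM. All 8 mutant libraries lay below the controls, which held 4.70 to 13.2 CPM. The log2 fold changes were −3.37 ± 0.47 in Neil1 (SE, FDR 9.58e-04), −2.95 ± 0.50 in Neil2 (SE, FDR 0.00674) and −3.43 ± 0.78 in the Apex1-labelled clone (SE, FDR 0.0327). Ifih1 held 0.643, 0.892 and 0.448 CPM in Neil1, 0.678, 1.10 and 0.629 CPM in Neil2, and 0.616 and 0.420 CPM in the Apex1-labelled libraries. All lay below the 2.61, 3.03 and 4.82 CPM of the controls. Its log2 fold changes were −2.30 ± 0.35 (SE, FDR 7.34e-04), −2.05 ± 0.37 (SE, FDR 0.00964) and −2.69 ± 0.59 (SE, FDR 0.0266). The 3 comparisons share the same control libraries and are not independent of each other. Each of these 6 calls held when any 1 library was left out.

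Among the members tested, 2 of 8 were lowered in Neil1 EBs (Isg15 and Ifih1), beside 13.1% of all tested genes lowered, and the same genes were 2 of 8 in Neil2 EBs, beside 7.69%. In the Apex1-labelled EBs 5 of 9 were lowered, beside 4.77%. None was raised in any mutant. Ifit3, among the 5, passed the count filter of this fit only through the controls. It could therefore only come out lowered, and its call adds nothing to the comparison with the share of all genes. Ifit1 and Irf7 were not DE in the Neil mutants (log2 fold changes −1.11 to −0.63, FDR 0.168 to 0.335), and the further genes in the Apex1-labelled EBs were Ifit1, Ifit3 and Irf7. Irf7 held 0.0769 and 0.175 CPM, below the 0.621, 0.786 and 0.862 CPM of the controls (log2 fold change −2.45 ± 0.69, FDR 0.0665). Ifit1 held 0.0385 and 0.280 CPM, on 1 and 8 counts, below the 0.476 to 1.15 CPM of the controls (log2 fold change −2.18 ± 0.68, FDR 0.0915). These calls rest on few counts. That of Irf7 was lost without any 1 control clone or the first duplicate (log2 fold change −2.59 to −2.01, FDR 0.109 to 0.147), and that of Ifit1 without control clone #4 or #7 or the first duplicate (−2.18 to −1.42, FDR 0.17 to 0.258). Ifit3 had 0 counts in both Apex1-labelled libraries against 6, 7 and 15 in the controls, so that it was at least 4.95-fold lower with 3 counts over the group as the floor (FDR 0.068). Its call was lost without control clone #4 (FDR 0.134) or either duplicate (FDR 0.126 and 0.138), and without control clone #7 it was not tested. In Neil1 EBs Ifit3 had 0, 1 and 1 counts and in Neil2 EBs 1, 0 and 0 counts, which was 10.6-fold lower (95% interval 2.67 to 91.5, counting error only) and 22.1-fold lower (3.65 to 902) than the 28 control counts. These were below the count filter of the edgeR test, and DESeq2 called them (FDR 0.0546 and 0.0285).

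Oasl2, which rose with Isg15 and Ifih1 in the control EBs, was not DE in the Neil mutants. It held 14.6, 13.5 and 7.76 CPM in Neil1 EBs and 11.3, 15.0 and 17.3 CPM in Neil2 EBs, which overlapped the 9.49, 11.4 and 20.0 CPM of the controls (log2 fold changes −0.10 and 0.15, FDR 0.844 and 0.81). The Apex1-labelled duplicates held 6.27 and 5.11 CPM, below all controls, at a log2 fold change of −1.21 (standard error 0.47) that missed the limit (FDR 0.172). Bst2 ranged from 57.6 to 83.3 CPM in Neil1, from 70.2 to 193 CPM in Neil2 and from 49.5 to 51.7 CPM in the Apex1-labelled EBs, against 55.2 to 122 CPM. None of its changes was DE (FDR 0.394 to 0.784). Stat2 and Ddx58 gave log2 fold changes between −0.17 and 0.46 and were not DE in any mutant.

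**Figure D2:**
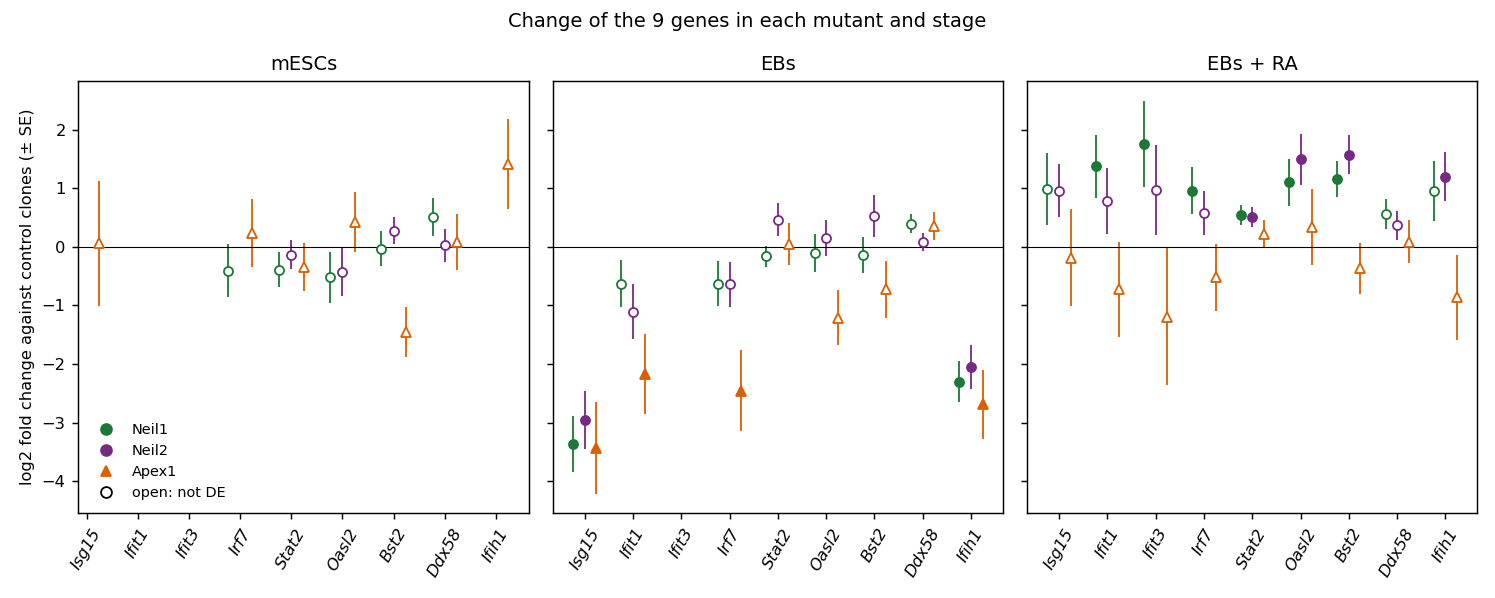
Log2 fold change of each member against the control clones of its stage (points, with standard error bars), for Neil1, Neil2 and the Apex1-labelled clone (triangles) in mESCs, EBs and EBs + RA. Filled symbols are DE, members too low to be tested are absent, and Ifit3 in Apex1-labelled EBs, which had 0 counts, is left out. Isg15 and Ifih1 stand between −3.43 and −2.05 in EBs of all mutants, and the filled symbols in EBs + RA, all above 0, belong to Neil1 and Neil2.

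With RA treatment, members moved in both directions in control clones, as did genes in general. Between control EBs + RA and control EBs, Irf7 was raised and 4 of the 9 members were lowered, so that 5 of 9 were DE beside 44.1% of all tested genes. Of all 15919 tested genes, 3717 were raised and 3302 lowered. The number of members DE is close to the share of all genes and is no result about the members as a set. Ddx58 fell from 28.2, 26.7 and 32.8 CPM to 13.7, 9.41 and 16.3 CPM in clones #1, #4 and #7, with no overlap (log2 fold change −1.28 ± 0.19, FDR 7.04e-04). Isg15 fell to 2.1, 2.39 and 5.65 CPM (log2 fold change −1.45, FDR 0.0331), and Ifih1 fell to 1.51, 1.06 and 2.95 CPM (−1.03, FDR 0.0584). Bst2 was lowered to 35.6, 37.4 and 79.6 CPM (log2 fold change −0.90, FDR 0.0842). Irf7 held 1.21, 1.10 and 2.31 CPM, above all EB libraries (log2 fold change 0.91, FDR 0.0622). With the clone as a block these 5 were DE (FDR 1.93e-04 to 0.0452) and so was Ifit1, at a log2 fold change of 0.90 (FDR 0.0534), which was 1.03 (FDR 0.151) without it. Single clones decided several calls. Isg15 lost its call without clone #4 (FDR 0.13), as did Bst2 (FDR 0.29), Ifih1 lost it without clone #1 or #4 (FDR 0.17 and 0.185), and Irf7 without clone #1 or #7 (FDR 0.199 and 0.159). Control clone #7 held the highest level of the controls for each of the 9 members in EBs + RA, and also in EBs without RA.

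In EBs + RA the members that were DE in the Neil mutants were all raised. In Neil1, 6 of 9 members were raised and none was lowered, beside 21.2% of all tested genes raised. In Neil2, 4 of 9 were raised and none was lowered, beside 18.3%. These counts depended on the control clones: without control clone #7 they were 8 of 9 in both, and without clone #1 or #4 they were 1 of 9 in both. Among the mutant clones, leaving out Neil1 clone #7 or #9 left 3 and 1 of 9, and leaving out Neil2 clone #14 left 2 of 9. In the Apex1-labelled clone 0 of 9 were DE by edgeR's test, 0 by DESeq2 and 0 at an unadjusted p below 0.05, beside 7.21% of all tested genes in either direction.

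Bst2 and Stat2 were raised in both Neil mutants without overlap with the controls. Bst2 levels were 136, 127 and 87.0 CPM for Neil1 (clones #7, #9 and #11) and 155, 114 and 199 CPM for Neil2 (clones #1, #11 and #14). The controls held 35.6, 37.4 and 79.6 CPM and the Apex1-labelled duplicates 37.2 and 42.2 CPM. The log2 fold changes were 1.15 ± 0.31 in Neil1 (SE, FDR 0.0219) and 1.57 ± 0.33 in Neil2 (SE, FDR 0.00835), and both calls held when any 1 library was left out. Stat2 held 42.8, 51.0 and 39.2 CPM in Neil1 and 51.2, 39.0 and 40.3 CPM in Neil2, against 26.8, 25.9 and 35.9 CPM. These were small changes, at log2 fold changes of 0.54 ± 0.17 (SE, FDR 0.0355) and 0.51 ± 0.17 (SE, FDR 0.0516). They fell below a limit without control clone #1 or #4 or Neil1 clone #9 (0.45 to 0.48, FDR 0.116 to 0.144) and without control clone #1 or #4 or Neil2 clone #1 (0.37 to 0.45, FDR 0.115 to 0.178). With all genotypes in 1 fit, the Neil2 change of Stat2 was below the limit of size (0.496).

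The target genes Oasl2, Ifit1 and Ifit3 varied widely between clones. Oasl2 held 38.5, 27.7 and 11.9 CPM in Neil1 and 14.3, 36.2 and 51.7 CPM in Neil2, against 8.64, 9.80 and 16.6 CPM in the controls. It was raised by log2 fold changes of 1.10 ± 0.40 (SE, FDR 0.0621) and 1.5 ± 0.43 (SE, FDR 0.0306), although Neil1 clone #11 and Neil2 clone #1 lay within the range of the controls. Ifit1 held 6.35, 5.30 and 2.40 CPM in Neil1 against 1.07, 0.902 and 3.27 CPM in the controls, which overlapped (log2 fold change 1.37 ± 0.54, FDR 0.0758). Ifit3 held 2.61, 2.63 and 0.788 CPM in Neil1 against 0.448, 0.0784 and 1.17 CPM (log2 fold change 1.76 ± 0.74, FDR 0.093). In Neil2 these genes held 1.64 to 4.85 and 0.534 to 2.02 CPM and were not DE (log2 fold changes 0.79 and 0.97, FDR 0.312 and 0.36). Irf7 held 2.47, 2.51 and 4.15 CPM in Neil1, above the 1.21, 1.10 and 2.31 CPM of the controls (log2 fold change 0.96 ± 0.40, FDR 0.0911). The Irf7 level in Neil2 was 1.95, 1.96 and 3.25 CPM and overlapped the controls (0.58, FDR 0.267). In Neil1, Oasl2, Ifit1 and Ifit3 each lost their call without control clone #1 or #4 or Neil1 clone #7 or #9 (log2 fold changes 0.72 to 1.61, FDR 0.123 to 0.243). Irf7 lost it without control clone #1 or #4 or Neil1 clone #9 or #11 (0.61 to 1.10, FDR 0.105 to 0.255). In Neil2, Oasl2 lost its call without control clone #1 or #4 or Neil2 clone #14 (1.06 to 1.39, FDR 0.106 to 0.119). With the replicate number as a block, 3 of 9 members were DE in Neil1, namely Bst2, Stat2 and Irf7 (FDR 0.0295 to 0.039), while Ifit1, Ifit3 and Oasl2 were not (FDR 0.11 to 0.147).

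The sensor genes and Isg15 gave mixed results in EBs + RA. Ifih1 held 6.08, 3.20 and 1.78 CPM in Neil1 and 2.85, 4.38 and 5.88 CPM in Neil2, against 1.51, 1.06 and 2.95 CPM, and both overlapped the controls. It was raised in Neil2 (log2 fold change 1.2 ± 0.42, FDR 0.0589), a call lost without control clone #1 or #4 or Neil2 clone #11 or #14 (0.92 to 1.2, FDR 0.112 to 0.192), and it was not DE in Neil1 (0.95, FDR 0.169). Ddx58 was not DE in either (0.56 and 0.37, FDR 0.126 and 0.279). Isg15 held 8.99, 10.3 and 1.74 CPM in Neil1 and 4.8, 4.99 and 10.6 CPM in Neil2, against 2.1, 2.39 and 5.65 CPM (log2 fold changes 0.99 and 0.96, FDR 0.232 and 0.14). Neil1 clone #11 lay below all controls for Isg15 and held the lowest level of the Neil1 clones for every member except Irf7, for which it held the highest.

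The Apex1-labelled EBs + RA lay within or below the range of the controls for 8 of the members, and Stat2, at 31.1 and 37.9 CPM, reached above it. Isg15 held 3.21 and 2.85 CPM, Ifit1 0.883 and 1.22 CPM, Irf7 0.836 and 1.29 CPM, and Oasl2 13.2 and 16.4 CPM. Their log2 fold changes ran from −0.73 for Ifit1 to 0.34 for Oasl2, with standard errors of 0.57 to 0.83. The difference between mutants was then tested itself, a comparison chosen after the data were seen. In the fit of all clones of the stage, 1 of 9 members, Bst2, was higher in Neil1 than in the Apex1-labelled clone (log2 difference 1.5 ± 0.47, FDR 0.066), beside 5.92% of all tested genes. Bst2 was also the member that was higher in Neil2 (1.93 ± 0.48, FDR 0.0604), 1 of 9 beside 1.29%. These calls were lost without Neil1 clone #7 or #9 (FDR 0.107 and 0.102) and without Neil2 clone #14 (FDR 0.149). DESeq2 called 5 and 2 members.

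The change in EBs + RA was then compared with the change in EBs of the same mutant. For Neil1, 7 of 9 members differed between the stages, all with the higher value in EBs + RA, beside 16.5% of all tested genes. For Neil2 it was 3 of 9, beside 7.31%. Isg15 differed by 4.37 ± 0.89 on the log2 scale in Neil1 (SE, FDR 0.00564) and by 3.89 ± 0.74 in Neil2 (SE, FDR 0.00494). Ifih1 differed by 3.27 ± 0.67 (SE, FDR 0.00466) and 3.23 ± 0.60 (SE, FDR 0.0044). These 4 results held without any 1 clone. Ifit3 differed by 5.01 (FDR 0.0227) and 5.10 (FDR 0.0626), values that rest on 2 and 1 counts in the mutant EBs and are no bound. In Neil1 the further members were Ifit1 (2.02, FDR 0.0601), Irf7 (1.60, FDR 0.0585), Bst2 (1.31, FDR 0.0649) and Stat2 (0.72, FDR 0.063). With the clone as a block, Oasl2 was added in Neil1 (1.12, FDR 0.00572), and Ifit1, Irf7, Oasl2 and Bst2 were added in Neil2 (FDR 0.0136 to 0.0841), which gave 7 of 9.

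**Figure D3:**
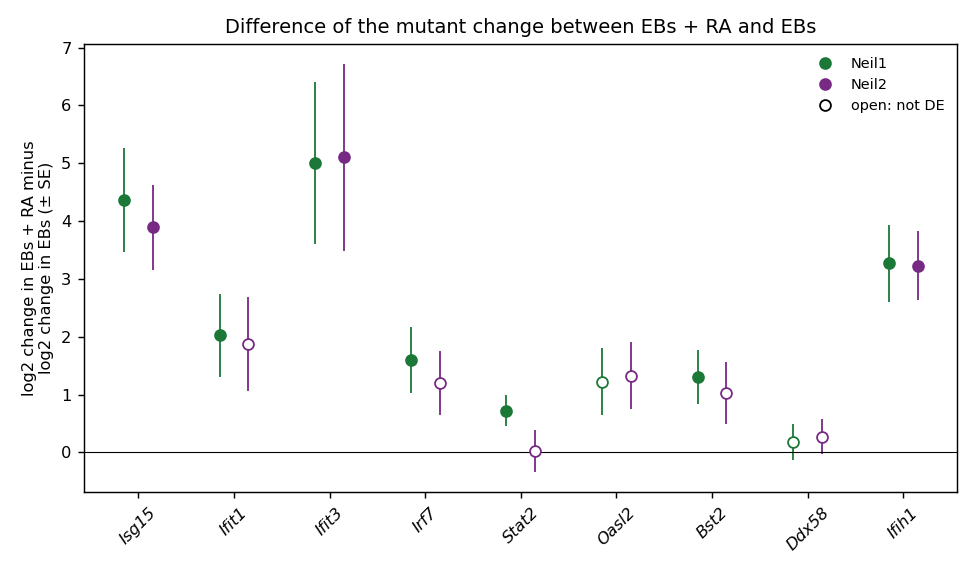
Difference on the log2 scale between the change in EBs + RA and the change in EBs, each against the control clones (points, with standard error bars), for the Neil1 and Neil2 clones. Filled points are DE. Isg15 and Ifih1 stand between 3.23 and 4.37 in both mutants, Ddx58 stands at 0.18 and 0.27, and the Ifit3 points rest on at most 2 counts in all mutant EB libraries together.

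Leaving out single clones in Neil1 removed the calls of Ifit1 (without control clone #1 or #4 or Neil1 clone #7 or #9, FDR 0.108 to 0.189), Irf7 (without control clone #1 or #4 or Neil1 clone #9 or #11, FDR 0.128 to 0.207), Bst2 (without control clone #4 or any Neil1 clone, FDR 0.124 to 0.206) and Stat2 (without control clone #1 or #4 or any Neil1 clone, FDR 0.117 to 0.134). In Neil2 the call of Ifit3 was lost without control clone #1 or #4 or any Neil2 clone (4.04 to 7.26, FDR 0.112 to 0.255). Between EBs and mESCs the Neil1 change differed for 1 of 8 members, Isg15 (−3.70 ± 0.98, FDR 0.0388), beside 5.86% of all tested genes lowered. This call was lost with the clone as a block (FDR 0.134) and without control clone #4 or Neil1 clone #7 or #11 (FDR 0.128 to 0.148). For Neil2 edgeR called 0 of 8 and DESeq2 0 of 7, with 1 member at an unadjusted p below 0.05, beside 10.2% of all tested genes in either direction.

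The wider pathway was described with lists of its other genes, by counts and medians. Of 50 other interferon-stimulated genes, 26 of 46 tested were raised and 7 lowered from control mESCs to control EBs, with a median log2 fold change of 0.93 (all genes −0.03), beside 18.5% of all tested genes raised and 20.2% lowered. In Neil1 EBs 7 of 45 were raised and 13 lowered, in Neil2 EBs 2 and 8 of 45, and in the Apex1-labelled EBs 0 and 10 of 47, where the median was −0.69. Of all tested genes, 10.4% were raised and 13.1% lowered in Neil1 EBs, 8.65% and 7.69% in Neil2 EBs, and 4.12% and 4.77% in the Apex1-labelled EBs. Without control clone #4 or #7 or Neil2 clone #14 the number DE in Neil2 fell from 10 to 5, and without control clone #7 that in the Apex1-labelled EBs fell from 10 to 6. The guanylate-binding GTPase gene Gbp2 went from a mean of 42.1 CPM in control EBs to 8.99 CPM in Neil1 (log2 fold change −2.15) and 2.87 CPM in the Apex1-labelled EBs (−3.83). The immunity-related GTPase gene Iigp1 averaged 2.88 CPM in control EBs and 0.18 CPM in Neil1 EBs (−3.96) and 0.124 CPM in those of Neil2 (−4.44). In the opposite direction, the antiviral gene Rsad2 held 0.88 CPM in the controls and was raised in both Neil mutants, with 1.97 CPM for Neil1 (1.27) and 1.87 CPM for Neil2 (1.14).

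In EBs + RA most other interferon-stimulated genes that passed the test in the Neil mutants were raised. In Neil1 28 of 46 were raised and 1 lowered (median 0.99, all genes 0.00), in Neil2 31 of 47 were raised and 1 lowered (median 1.07), and in the Apex1-labelled clone 5 of 47 were raised and 0 lowered (median −0.05). Of all tested genes, 21.2% were raised and 19.9% lowered in Neil1, 18.3% and 16.6% in Neil2, and 4.97% and 2.25% in the Apex1-labelled clone. Ifit2, a relative of Ifit1, gave log2 fold changes of −0.22 and 0.01 in Neil1 and Neil2 and was named after its values were seen. The chemokine gene Cxcl10 averaged 69.0 CPM in Neil1 against 14.0 CPM in the controls (log2 fold change 2.27, FDR 0.0012). Mx1, a GTPase that blocks influenza, was at 0.664 against 0.149 CPM in Neil2 (2.09, FDR 0.0232). In the same stage Ifitm2 was the gene lowered in Neil1 (164 against 303 CPM, −0.94). Ifitm1 was raised in the Apex1-labelled clone (141 against 28.1 CPM, 2.28, FDR 0.0396). The number DE fell from 29 to 18 in Neil1 without control clone #1, from 32 to 18, 20 and 21 in Neil2 without control clone #1 or #4 or Neil2 clone #14, and from 5 to 2, 2 and 3 in the Apex1-labelled clone without control clone #1 or #4 or its first duplicate. In mESCs 4 of 39 were raised in Neil1, among them Oas1a (12.0 against 4.46 CPM, 1.44, FDR 0.0839), beside 1.03% of all tested genes raised. Without control clone #7 this count was 8, and without any other 1 library it was 0. In Neil2 and the Apex1-labelled clone 0 of 38 and 0 of 41 were DE by edgeR's test, which became 8 and 7 without control clone #7.

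**Figure D4:**
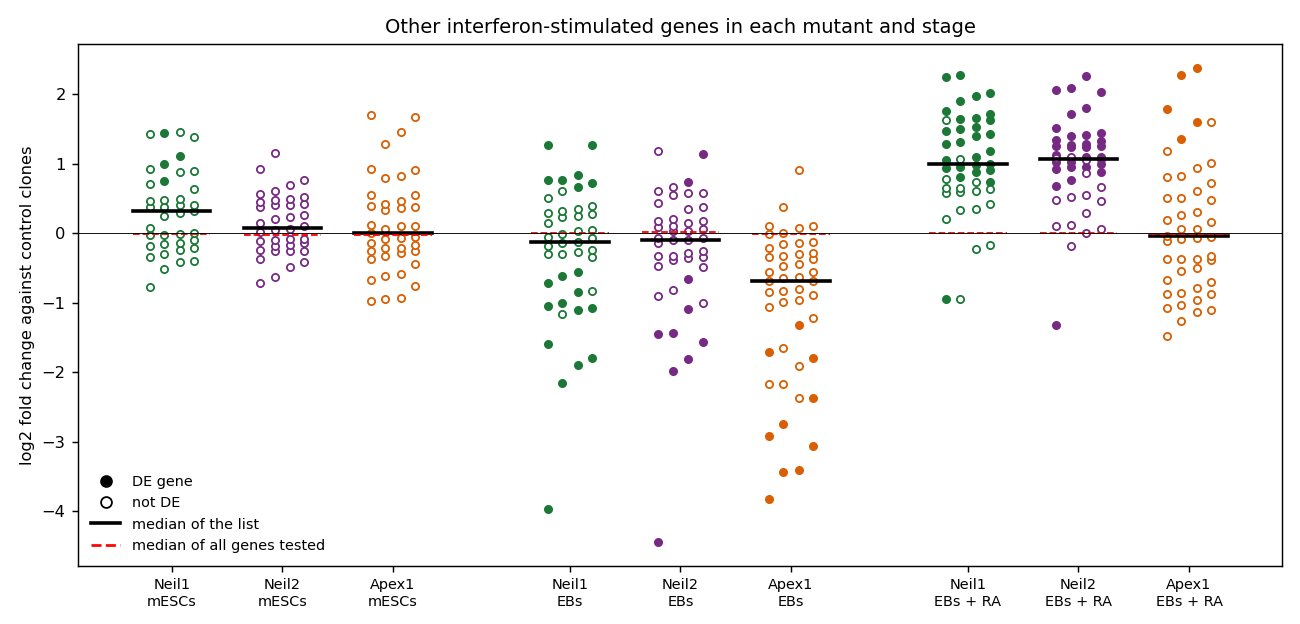
Log2 fold changes against the control clones of the other interferon-stimulated genes that were tested, for each mutant and stage (1 point per gene, filled where DE). The black bar is the median of the list and the dashed red line the median of all genes tested. The list median stands near 1 in Neil1 and Neil2 EBs + RA (0.99 and 1.07) and at −0.69 in Apex1-labelled EBs.

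The interferon ligand genes that were looked at had few counts. The 8 ligand genes on the list (Ifnb1, Ifna2, Ifna4, Ifne, Ifnk, Ifng, Il28a and Il28b) reached at most 11 counts each in any library and at most 21 counts together. Reads that align to several places are not counted, so that genes with near copies may be counted too low. Interferon genes outside this list were not examined. Among all 27 ligands, receptors and transcription factors, 8 of 19 tested were lowered in Neil1 EBs, 3 in Neil2 EBs and 3 in the Apex1-labelled EBs, beside the shares of all tested genes given above for EBs, and none was raised. The Neil2 count was 8 without Neil2 clone #1, and that of the Apex1-labelled EBs was 0 without control clone #4 or #7. Usp18, which encodes the protease that removes ISG15 and restrains the receptor, went from 4.54 CPM in control EBs to 0.259, 0.188 and 0.465 CPM in the mutants (log2 fold changes −4.03, −4.48 and −3.23). Irf2, a factor that competes at the same promoters, went from 5.25 to 1.08, 1.30 and 1.26 CPM (−2.17, −1.97 and −1.99). In EBs + RA 7 of 19 were raised and 1 lowered in Neil1, 4 of 19 were raised in Neil2, and 0 of 21 were DE in the Apex1-labelled clone. Of all tested genes, 21.2% were raised in Neil1 and 18.3% in Neil2, and the share for the Apex1-labelled clone is given above. The Neil2 count is near the share of all genes and is no result about the list. Without control clone #1 or #4 the number DE in Neil1 fell from 8 to 5, and without control clone #7 that in Neil2 was 9. Usp18 was raised in Neil1 (7.86 against 2.82 CPM, 1.44, FDR 0.0136) and Irf1 in Neil2 (106 against 37.9 CPM, 1.43, FDR 0.00479).

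Of 18 other sensors and adaptors, 7 of 14 were raised in Neil1 EBs + RA and 7 of 14 in Neil2 EBs + RA, with 1 and 0 lowered, and 1 of 15 was raised in the Apex1-labelled clone, beside 21.2%, 18.3% and 4.97% of all tested genes raised. The number DE fell from 8 to 4 in Neil1 without control clone #1 or #4 or Neil1 clone #7 or #9, and from 7 to 2 or 3 in Neil2 without control clone #1 or #4 or Neil2 clone #11 or #14. The 1 call in the Apex1-labelled clone was lost without control clone #1 or #4. Trim25, the ligase that activates RIG-I, averaged 138 CPM in Neil1 against 50.3 CPM (log2 fold change 1.43, FDR 0.00617). Aim2, which senses DNA, averaged 8.03 CPM in Neil2 against 3.47 CPM (1.16, FDR 0.0183). Tmem173, which encodes STING, moved apart from these: it was lowered in Neil1 EBs + RA (1.30 against 2.32 CPM, −0.87, FDR 0.0466) and raised in the Apex1-labelled clone (7.66 CPM, 1.71, FDR 0.0281). In EBs Tmem173 was lowered in Neil1 (0.296 against 1.26 CPM, −1.97) and Neil2 (0.432 CPM, −1.5). Of 10 genes that dispose of nucleic acid, 8 were tested. In EBs + RA 2 were raised (Rnaset2a and Dnase2a, 0.90 and 0.60) and 1 lowered (Rnaseh2a, −0.65) in Neil1, and Rnaset2a was raised in Neil2 (0.82). These counts are close to the shares of all tested genes and are no result about the list.

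Markers of cell types also moved with genotype in EBs + RA, and their part in the results above was not tested. The summed level of 12 macrophage and blood markers was 16.6 to 25.8 CPM in the controls, 50.9 to 102 CPM in Neil1, 33.2 to 45.3 CPM in Neil2 and 17.2 to 19.9 CPM in the Apex1-labelled clone. Of these markers 4 of 6 tested were raised in Neil1 and 3 of 5 in Neil2, beside 21.2% and 18.3% of all tested genes raised. The sums consisted mainly of Csf1r (23.5 CPM in Neil1, 8.18 in Neil2 and 3.87 in the controls) and Cd68 (40.2, 28.2 and 14.4 CPM). Ptprc, Tyrobp, Emr1, Aif1, Cx3cr1 and Lyz2, picked from the list after their levels were seen, averaged at most 0.176 CPM in each group of EBs + RA. Pluripotency markers summed to 256 to 328 CPM in the controls, 472 to 1043 CPM in Neil1, 579 to 1916 CPM in Neil2 and 1805 to 2428 CPM in the Apex1-labelled clone, and neuroectoderm markers to 259 to 446, 42.3 to 57.1, 41.2 to 53.8 and 70.9 to 78.8 CPM. Endoderm markers summed to 192 to 676 CPM in the controls, 735 to 1452 CPM in Neil1, 241 to 820 CPM in Neil2 and 272 to 274 CPM in the Apex1-labelled clone. In EBs, where Isg15 and Ifih1 were lowered, pluripotency markers summed to 3328 to 3944 CPM in the controls and to 5021 to 6465 CPM over all mutant libraries. Endoderm markers in EBs summed to 301 to 606 CPM in the controls, 454 to 629 CPM in Neil1, 156 to 839 CPM in Neil2 and 70.0 to 88.9 CPM in the Apex1-labelled clone, in which 5 of 9 members were lowered. Of the 8 endoderm markers 3 were lowered in these libraries by edgeR's test, beside 4.77% of all tested genes lowered, and 8 by DESeq2. The edgeR count was 0 without control clone #1 or #7, 1 without #4 and 5 without the first duplicate. Endothelial markers moved in both directions in EBs, with 3 of 7 tested raised and 3 lowered in Neil1, 3 and 2 in Neil2, and 2 and 2 in the Apex1-labelled clone. These counts stand beside the shares of all tested genes raised and lowered given above for EBs. The endothelial sums overlapped (130 to 178 CPM in the controls and 129 to 197 CPM over all mutant libraries). The endothelial gene Emcn was at 0 counts in the EBs of each mutant and not in those of the controls. It was also at 0 counts in the mESCs of every genotype, controls included, and it is 1 marker of a list that moved in both directions. In EBs + RA the endothelial markers summed to 65.1 to 84.3 CPM in the controls, 102 to 267 CPM in Neil1, 83.7 to 114 CPM in Neil2 and 159 to 167 CPM in the Apex1-labelled clone.

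Genes whose mean log2 CPM followed that of a member over the 12 groups were listed among 14206 genes, as a description that carries no test, since all points share libraries. The most similar genes were Slc22a23 and Tpm1 for Isg15 (r = 0.983 and 0.98), Epn3 and Slc25a10 for Ifit1 (0.988 and 0.987), Arsi and Gbp1 for Ifih1 (0.989 and 0.984), and Tmprss2 and S100g for Oasl2 (0.983 and 0.981). For Bst2 they were Eml2 and Fam125a (0.945 and 0.931), for Ddx58 2410127L17Rik and Nln (0.983 and 0.976), and for Stat2, which varied least, Ngef and Uap1 (0.894 and 0.847). Ifit3 and Irf7 averaged 0.4 and 0.992 CPM over all libraries, under the minimum of 1 CPM. Irf7 shares 45 of its 3023 exon bases with Phrf1 on the opposite strand. Reads of an unstranded library that overlap both genes go to a tally of ambiguous reads, which was left out, so that Irf7 counts may be slightly too low. I830012O16Rik, a near copy of Ifit3, held 16, 21 and 2 counts in Neil1 EBs + RA, 7, 0 and 13 counts in Neil2 EBs + RA, and 3, 2 and 8 counts in the controls. Reads that align to both copies are counted for neither, so that the counts of both genes may be too low. Oasl1, the relative of Oasl2, was raised in EBs + RA of Neil1, Neil2 and the Apex1-labelled clone (log2 fold changes 2.25, 2.26 and 2.38), on at most 69 counts in a library. The call in the Apex1-labelled clone was lost without control clone #1 or #4 or its first duplicate.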

How the data were processed

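PolyA-selected, unstranded RNA-seq libraries (33) were analysed. The deposited values are raw counts per gene, which the authors made with HTSeq 0.5.4 from TopHat2 2.0.9 (Bowtie2 2.1.0) alignments to NCBIM37. Reads aligned to several places, 11.4 to 19.9% per library, and the other HTSeq tallies were left out of totals and tests. Levels are CPM over counts on genes. Tests used edgeR 4.0.16 in R 4.3.3 (filterByExpr, TMM, robust quasi-likelihood test, Benjamini-Hochberg FDR over all tested genes). TMM factors were 0.911 to 1.13. Neil clones were compared with the control clones of their stage. The Apex1-labelled duplicates were summed to 1 sample and fitted with all clones of the stage, which assumes that the lone clone varies like the others. All comparisons at a stage share the control libraries, and p-values measure the spread between clones of 1 parent line.

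On counts simulated for Neil1 EBs, the test recovered 60 of 100 genes changed by 1 on the log2 scale and 100 of 100 changed by 2, with 17 false calls among 15285 genes. For the Apex1-labelled EBs it recovered 20 and 94 of 100 (12 false calls among 16372), and for the Neil1 difference between EBs + RA and EBs 18 and 92 of 100 (11 among 16341). All genes were simulated with 1 fixed dispersion of 0.05, and only genes with a mean above 20 counts were changed. These rates therefore do not describe members with fewer counts or a wider spread between clones. The intervals and the floor of 3 counts cover counting error only. Samples of one clone at different stages share a replicate number, which pairs them in control stage comparisons and in differences of changes between stages (correlation of deviations from the group means −0.413 to 0.439). Between mutants and controls equal numbers are different clones, but in Neil1 EBs + RA all 3 pairs of deviations correlated (0.139 to 0.21), and the blocked values are given there too. Alternatives were DESeq2 1.42.0, RLE size factors, library size alone, no count filter, FDR below 0.05, other sample sets, a replicate block, and 91 fits without 1 library or clone. The members and gene lists were chosen with earlier results of these data known. All members are given. From each other list, the genes named were taken from the 2 largest rises and 2 largest falls among called genes of a comparison. Exceptions were Ifit2, Cd68, Emcn and the low macrophage markers, which were named after their values were seen. Similar genes were the 2 with the highest Pearson correlation.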

Additional observations from a re-analysis of the deposited data

Results flagged for a closer look

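The results here were set apart because the change of a mutant differed between stages, or between mutants, by a test of the difference itself. For Neil1, the log2 change in EBs + RA exceeded that in EBs by 4.37 for Isg15, 2.02 for Ifit1, 5.01 for Ifit3, 1.6 for Irf7, 0.72 for Stat2, 1.31 for Bst2 and 3.27 for Ifih1. For Neil2 it did so by 3.89 for Isg15, 5.1 for Ifit3 and 3.23 for Ifih1. The Isg15 change in Neil1 was lower in EBs than in mESCs by a log2 difference of -3.7. In EBs + RA, Bst2 was higher in Neil1 than in the Apex1-labelled clone by 1.5 and higher in Neil2 by 1.93, in comparisons chosen after the data were seen. With 3 clones or 2 libraries per group, no group was large enough to be searched for an outlying library.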

How the results depend on the processing

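No called result of a member reversed under any alternative. Of 42 such results, 40 of 41 were also called by DESeq2, 42 of 42 with RLE size factors, 40 of 42 with library size alone, 33 of 42 without a count filter and 22 of 42 at an FDR below 0.05, and 18 held in every fit that left out 1 library or clone. The number of members DE moved by over 1.5 times as follows, and the cause was not tested. At an FDR below 0.05 it was 2 in Apex1-labelled EBs, 2 in Neil1 EBs + RA, 2 in Neil2 EBs + RA, 2 between control EBs + RA and EBs, 3 for the Neil1 difference between EBs + RA and EBs, and 0 for both differences from the Apex1-labelled clone. Without a count filter it was 2 in Neil2 EBs + RA and 0 for both differences from the Apex1-labelled clone. With DESeq2 it was 1 in Apex1-labelled mESCs, and 5 and 2 for the differences of Neil1 and Neil2 from that clone. With the Apex1-labelled duplicates as separate samples and the control clones as the only others in the fit, it was 1 in mESCs.

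With the replicate block it was 2 in Apex1-labelled mESCs, 1 in Apex1-labelled EBs + RA, 3 in Neil1 EBs + RA, 7 in Neil2 EBs + RA, 0 for the Neil1 difference between EBs and mESCs and 7 for the Neil2 difference between EBs + RA and EBs. Between mutants and controls equal numbers are different clones, whose deviations correlated by -0.373 to 0.459, so that a call gained or lost with this block is no measure of strength. The block changed no other count by this much.

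Leaving out 1 library or clone gave 0 to 0 members in Neil1 and Neil2 mESCs, 0 to 1 in Apex1-labelled mESCs, 2 to 3 in Neil1 EBs, 2 to 2 in Neil2 EBs, 2 to 4 in Apex1-labelled EBs, 1 to 8 in Neil1 EBs + RA, 1 to 8 in Neil2 EBs + RA and 0 to 0 in Apex1-labelled EBs + RA. It gave 4 to 5 between control EBs and mESCs, 2 to 4 between control EBs + RA and EBs, 0 to 1 and 3 to 7 for the Neil1 differences between stages, 0 to 0 and 2 to 4 for those of Neil2, and 0 to 2 and 0 to 1 for the differences of Neil1 and Neil2 from the Apex1-labelled clone.

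With library size alone the median of all genes shifted by 0.107 in Apex1-labelled mESCs, 0.122 between control EBs + RA and EBs, and 0.108 and 0.118 for the Neil1 and Neil2 differences between EBs + RA and EBs. The calls over all genes were then 519 raised and 102 lowered (199 and 137 with TMM) in Apex1-labelled mESCs, 3384 and 1615 (2763 and 2183) and 1552 and 997 (1225 and 1291) for those differences, and 496 and 1079 (691 and 958) for the Neil1 difference between EBs and mESCs. Depth limits Isg15, Ifit1, Ifit3, Irf7, Oasl2 and Ifih1 in mESCs, Ifit3 in EBs, and Ifit1 and Irf7 in Apex1-labelled EBs.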

Other observations

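The ISRE core that 7 of 9 members held was also counted in the promoter windows of the other lists. It occurred in 14 of 37 other interferon-stimulated genes with a window, in 4 of 25 interferon ligands, receptors and transcription factors, and in 2 of 13 sensors and adaptors. None of 9 genes of nucleic acid disposal, 7 pluripotency genes and 5 neuroectoderm genes held it. These counts carry no test.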
